A study of Mus musculus with 40 samples.

Results

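Transcription factors that mark the territories of the brain were followed across 5 dissected regions of the mouse. The set comprised 37 named genes, taken from a table of 19505 genes by gene symbol. Where a gene had several rows, the row with the highest mean signal was used, which concerned Rorb alone. A row was found for 36 of the 37 genes. Bhlhe22 was not analysed here. All 36 passed the filter on dim genes, so that 36 of the 14978 genes tested were members. Of these, 5 were above the filter level in 1 region alone, Sp8 in prefrontal cortex and En1, Barhl1, Lhx1 and Lhx5 in cerebellum. They had to be high there to be included, and their calls support nothing about those regions. The same holds for En2 and Zic4 in cerebellum. Outside it, En2 was above that level on 2 amygdala and 1 striatum arrays, and Zic4 on 1 prefrontal cortex and 1 striatum array. The filter needed 4 arrays. The genes were sorted by their developmental role. The 11 measured pallial factors act in the cortex, hippocampus and pallial amygdala. The 13 subpallial factors act in the striatum and in GABAergic neurons. The 12 factors named caudal here are cerebellar, hindbrain, diencephalic or medial. The study hybridised total RNA, extracted with Trizol, from amygdala, cerebellum, hippocampus, prefrontal cortex and striatum of mice labelled Ala92D2HY or Thr92D2HY. These mice carried alanine or threonine at residue 92 of the type 2 deiodinase, the Dio2 product that makes active thyroid hormone. All were 8 to 10 weeks old, of the background strain given as C56BL/6, fed chow and kept at room temperature. Each of the 10 groups of region and genotype had 4 arrays, numbered in the labels from 1 to 40. The labels name no animal for an array, and p-values therefore measure the spread between arrays, which may be technical.

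The vertebrate forebrain and hindbrain are patterned by homeodomain, zinc-finger, forkhead and T-box transcription factors. Pallial progenitors give rise to glutamatergic neurons and use factors such as Emx2, Lhx2, Tbr1 and Fezf2. The subpallium produces striatal projection neurons and most forebrain interneurons under Dlx, Isl1 and Foxp factors, and its dorsal edge also supplies interneurons to the olfactory bulb. Cerebellar granule cells derive from the rhombic lip and keep Pax6, Zic and engrailed genes in the adult. Many of these factors remain on in mature neurons and so mark their origin.

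Promoters of 4 members are shown, each with its highest mean level in a different region. Each sequence is the 250 bases upstream of the transcription start, in the direction of transcription, from RefSeq on GRCm38.p6, with the CG dinucleotides in capitals. Neurod2, highest in hippocampus, has 11 CG dinucleotides at chr11:98329646-98329895 on the minus strand. Dlx2, highest in prefrontal cortex, has 24 at chr2:71546755-71547004 on the minus strand. Isl1, highest in striatum, has 33 at chr13:116309689-116309938 on the minus strand. Zic5, highest in cerebellum, has 11 at chr14:122465659-122465908 on the minus strand.
Neurod2: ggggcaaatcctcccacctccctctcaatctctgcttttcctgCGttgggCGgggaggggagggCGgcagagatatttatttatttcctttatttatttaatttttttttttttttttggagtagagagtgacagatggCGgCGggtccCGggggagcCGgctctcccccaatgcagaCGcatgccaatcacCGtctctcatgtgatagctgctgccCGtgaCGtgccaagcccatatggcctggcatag
Dlx2: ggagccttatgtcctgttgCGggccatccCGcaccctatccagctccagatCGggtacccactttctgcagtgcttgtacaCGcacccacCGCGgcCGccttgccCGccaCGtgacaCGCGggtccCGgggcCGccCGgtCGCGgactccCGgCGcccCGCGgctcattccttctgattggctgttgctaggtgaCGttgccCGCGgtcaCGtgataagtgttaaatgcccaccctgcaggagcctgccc
Isl1: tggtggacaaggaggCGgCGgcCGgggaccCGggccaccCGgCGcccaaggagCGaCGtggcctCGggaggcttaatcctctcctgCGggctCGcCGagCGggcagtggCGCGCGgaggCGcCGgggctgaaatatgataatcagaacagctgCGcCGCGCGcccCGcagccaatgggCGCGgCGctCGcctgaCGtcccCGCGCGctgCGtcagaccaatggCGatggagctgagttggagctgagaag
Zic5: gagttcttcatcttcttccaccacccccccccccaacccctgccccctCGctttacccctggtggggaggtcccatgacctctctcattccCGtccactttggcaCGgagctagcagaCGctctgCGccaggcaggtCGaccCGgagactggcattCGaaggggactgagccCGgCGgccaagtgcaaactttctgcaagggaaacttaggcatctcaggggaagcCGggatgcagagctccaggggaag
A promoter was found for 28 of the 37 genes. The median number of CG dinucleotides in this window was 13.5 for the 28 members and 6 over the promoters of 27025 genes. The median was 16 for the 10 pallial, 11 for the 9 subpallial and 13 for the 9 caudal promoters. The letters TGACAG, the core recognised by MEIS proteins, occurred on either strand in 10 of the 28 (35.7%) and in 15.9% of all promoters. The homeodomain core TAATTA occurred in 1 of the 28, that of Tbr1, and in 4.9% of all. The E-box CANNTG, bound by basic helix-loop-helix proteins, occurred in 13 of the 28 (46.4%) and in 66.1% of all. A match is a description of letters and shows no binding.

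Values are log2 signals, on which 1 unit is a doubling. They depend on the probes of each gene and are compared between samples, never between genes. The medians of the negative control rows of an array lay between 5.73 and 6.35. Emx1, Otx1, En1, Barhl1 and Lhx5 had a mean below that range in every region, and Zic4 and Lhx1 came no higher than within it. The labelled regions were checked against lists of marker genes: all 10 striatum, all 9 cerebellum, 8 of 9 hippocampus, 7 of 10 amygdala and, in prefrontal cortex, 5 of 10 neocortex markers were called higher in their own region. The lists were chosen with earlier results of these data known, so this check is not independent. Some arrays stood apart within their region. On Ala amygdala array 1 the mean of the striatum markers was 12.0, against 8.6 to 9.9 on the other 7 amygdala arrays, and the mean of the cerebellum markers was 8.9, against 6.3 to 7.0. All 8 prefrontal cortex arrays had olfactory bulb markers at means of 6.7 to 9.9, against at most 5.6 on the arrays of the other regions. The mean of the neocortex markers was 7.4 and 7.6 on striatum arrays 33 and 39, against 6.2 to 6.8 on the others. The mean of the thalamus markers was 9.6 and 9.0 on hippocampus arrays 23 and 24, against 7.3 to 8.1. The mean of the choroid plexus markers in striatum lay at 7.9 to 10.9 on the Ala and 6.6 to 7.4 on the Thr arrays. In tissue RNA, fewer cells of a type and less RNA per cell cannot be told apart.

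Regional differences were found for nearly all members. An F-test over the 5 regions passed for 35 of the 36, with Emx1 the exception (adjusted p = 0.149), and for 68.8% of all genes tested. Against the mean of the other 4 regions, at an adjusted p under 0.05 and a difference of at least 1 log2 unit, 32 of the 36 were called in at least 1 region, against 25.0% of all genes. The 35 and the 32 include Sp8, Barhl1, Lhx1, Lhx5, En2 and Zic4, which needed their highest region to pass the filter. The cerebellum had 13 members called higher (8.69% of all genes) and 16 lower (10.1%). The striatum had 8 higher (5.71%) and 11 lower (5.20%), and the prefrontal cortex 10 higher (3.28%) and 7 lower (1.94%). The hippocampus had 7 higher (3.57%) and 11 lower (2.34%), and the amygdala 3 higher (3.40%) and 6 lower (2.44%). Without Sp8, En1, Barhl1, Lhx1 and Lhx5, 10 were higher in cerebellum and 9 in prefrontal cortex. The 10 still included En2 and Zic4. The reference also mattered. With the cerebellum left out of it, 4 of the 7 members higher in hippocampus and 7 of the 11 lower kept the call, as did 2 of the 3 higher and 1 of the 6 lower in amygdala. Of the calls that were lost, En2 and Zic2 turned positive in both regions and Bcl11b turned negative in hippocampus. In prefrontal cortex 8 of the 10 higher and 3 of the 7 lower kept the call, and Zic2 and Zic5 turned positive. In striatum all 8 higher and 7 of the 11 lower kept it. Between pairs of regions, the cerebellum differed from amygdala in 27 members (21.1% of all genes), from hippocampus in 26 (19.3%), from prefrontal cortex in 29 (19.2%) and from striatum in 29 (21.4%). Each of these counts includes Barhl1, Lhx1, Lhx5, En2 and Zic4, which needed their cerebellum arrays to pass the filter. The striatum differed from amygdala in 18 (11.9%), from hippocampus in 20 (11.4%) and from prefrontal cortex in 18 (10.9%). Prefrontal cortex differed from hippocampus in 16 (6.22%) and from amygdala in 12 (3.83%), and amygdala from hippocampus in 6 (4.78%), which were Neurod2, Foxp2, Meis2, Tshz1, Lhx9 and Meis1. Every count with prefrontal cortex includes Sp8, which passed the filter through that region alone.

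**Figure D1:**
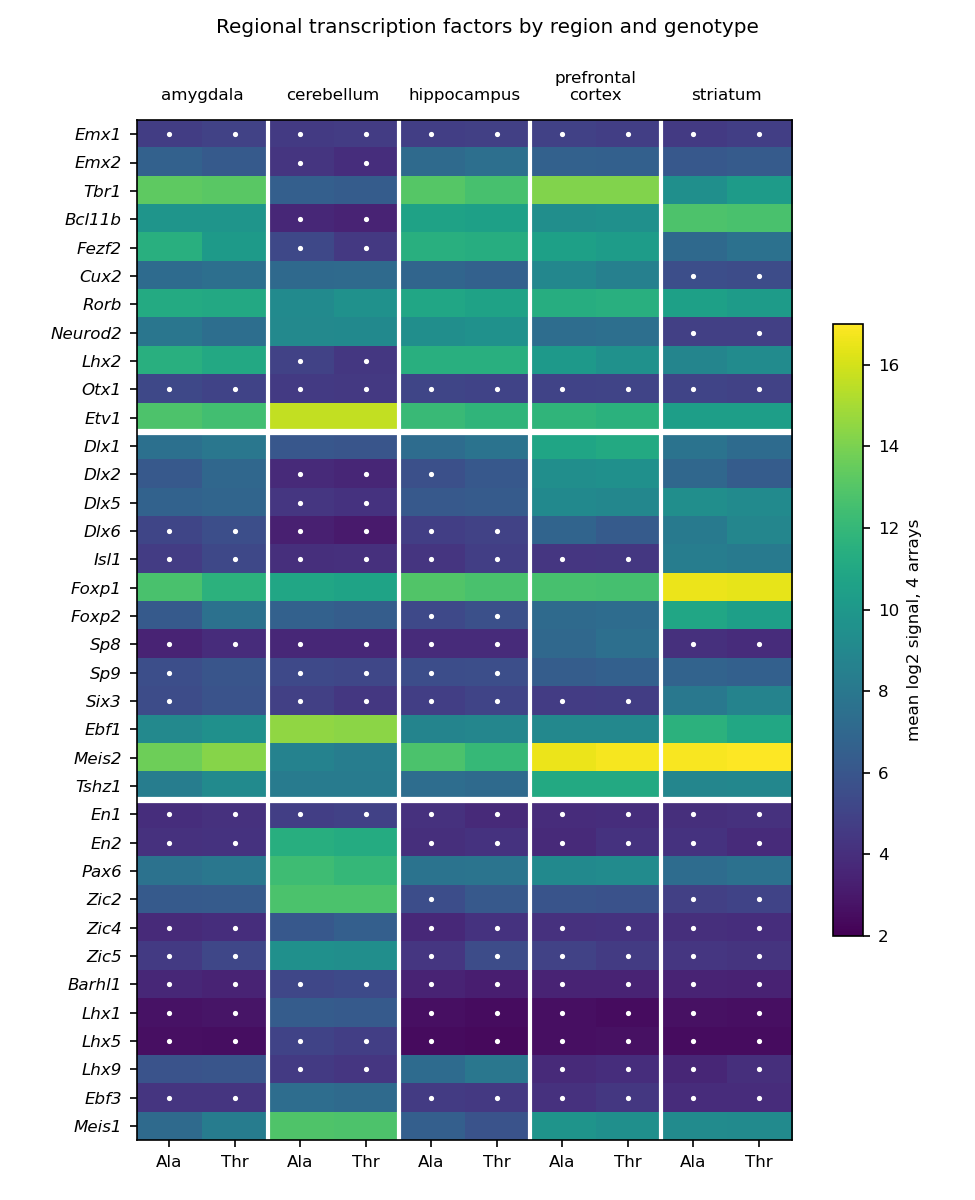
Mean log2 signal over 4 arrays (colour) of 36 transcription factors (rows; pallial, subpallial and caudal from top to bottom) in the Ala and Thr groups of 5 regions (columns). White dots mark means below 5.73, the lowest negative control median. All 12 caudal genes except Lhx9 have their highest mean in the cerebellum columns. Of these, En1, En2, Zic4, Barhl1, Lhx1 and Lhx5 needed their cerebellum arrays to pass the filter.

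The highest region of a member was the cerebellum for 13, the striatum for 9, the prefrontal cortex for 7, the hippocampus for 5 and the amygdala for 2. It differed from the next region for 24 of the 36: 12 in cerebellum, 6 in striatum, 5 in prefrontal cortex and 1 in hippocampus. The 2 in amygdala were Emx1 and Otx1, below the negative controls in every region. The 13 include En1, Barhl1, Lhx1, Lhx5, En2 and Zic4, and the 7 include Sp8, which needed those regions to pass the filter. For 21 members all 8 arrays of the highest region lay above the other 32 arrays, 12 of them in cerebellum, 5 in striatum and 4 in prefrontal cortex. The share over all genes tested was 10.2%. Sp8, Barhl1, Lhx1 and Lhx5 were among the 21. Without these 4 the count was 17, with 9 in cerebellum, 5 in striatum and 3 in prefrontal cortex. The 9 still included En2 and Zic4, which also needed their cerebellum arrays to pass the filter. No member was set apart in this way in hippocampus or amygdala.

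Among the pallial factors, 6 of 11 were higher in hippocampus, 3 in prefrontal cortex and 3 in amygdala, while 6 were lower in cerebellum and 5 in striatum. Their median difference in hippocampus was 1.47, against -0.027 over all genes tested. In the other direction, Neurod2 (1.75 ± 0.17) and Etv1 were called higher in cerebellum, and Bcl11b in striatum. With the cerebellum left out of the reference, Fezf2, Neurod2 and Lhx2 kept the call in hippocampus. Emx2 (0.90) and Tbr1 (0.42) were below the size required and Bcl11b was at -0.092. Of the 3 higher in prefrontal cortex and the 3 higher in amygdala, 2 each kept the call. Tbr1, a T-box factor of early-born cortical glutamatergic neurons, ran from 13.06 over a median of 14.25 to 14.90 on the prefrontal cortex arrays. It ran from 11.63 over 13.25 to 14.46 in amygdala, from 12.12 over 12.91 to 13.76 in hippocampus, from 7.06 over 10.50 to 12.88 in striatum and from 4.74 over 6.26 to 9.23 in cerebellum. The 3 pallial regions overlapped, and neighbours among them in this order did not pass the test. Tbr1 in striatum was 2.98 ± 0.62 (SE) below hippocampus and spread widely: arrays 33 and 39, those with the highest neocortex markers, read 12.40 and 12.88, and the other 6 read 7.06 to 10.72. Against the other regions Tbr1 in striatum differed by -1.81 ± 0.49 (adjusted p = 0.00239), and by -2.74 without those 2 arrays.

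Fezf2, the zinc-finger factor that specifies subcerebral projection neurons, was highest in hippocampus at 11.41 ± 0.52 (SD, n = 8). It was 10.80 ± 0.84 in amygdala, 10.40 ± 0.96 in prefrontal cortex, 7.36 ± 0.92 in striatum and 4.86 ± 0.93 in cerebellum. The first 3 did not differ between neighbours, and each step below them passed. Lhx2, a LIM-homeodomain selector of cortical identity, was 11.46 ± 0.35 in hippocampus, 11.26 ± 0.50 in amygdala, 9.86 ± 0.35 in prefrontal cortex, 9.02 ± 0.91 in striatum and 4.69 ± 1.08 in cerebellum. The step from amygdala to prefrontal cortex was 1.40 ± 0.32 (adjusted p = 0.00148). On Ala cerebellum array 12, Lhx2 read 7.19, Fezf2 7.06 and Tbr1 9.23, each above the other 7 cerebellum arrays.

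Emx2, which patterns the caudal and medial cortex including the hippocampus, was 7.33 ± 0.32 in hippocampus and 4.14 ± 0.32 in cerebellum, with the other 3 regions between 6.22 and 6.61. Its hippocampal difference from the other regions was 1.47 ± 0.12 (adjusted p = 2.66e-13), and 0.90 with the cerebellum left out, below the size required. Neurod2, a basic helix-loop-helix factor of maturing excitatory neurons, was 9.48 ± 0.30 in hippocampus, 9.10 ± 0.28 in cerebellum, 7.65 ± 0.31 in amygdala, 7.43 ± 0.42 in prefrontal cortex and 4.86 ± 0.73 in striatum. Hippocampus and cerebellum did not pass the test between them, and the 16 arrays of both lay above all others. Cux2, of upper-layer cortical neurons, was highest in prefrontal cortex at 8.75 ± 0.33 and lowest in striatum at 5.55 ± 0.58. Its step from prefrontal cortex to amygdala, where arrays ran from 6.13 to 8.92, was 1.38 ± 0.35 (adjusted p = 0.00459).

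Rorb, a nuclear receptor of layer 4 neurons, differed by at most 2.03 log2 units between regions, from 11.40 ± 0.34 in prefrontal cortex to 9.37 ± 0.30 in cerebellum. Its second row had the same order of regions at a lower level. Bcl11b and Etv1 had their highest mean outside the pallial regions, which does not follow the name of their class. Bcl11b, a zinc-finger factor of both corticospinal and striatal projection neurons, was highest in striatum, at 12.25 to 13.36, against 11.24 or less elsewhere and 2.99 to 4.57 in cerebellum. Etv1, an ETS factor of layer 5 neurons that cerebellar granule cells also express, read 15.51 to 15.77 in cerebellum and at most 13.89 elsewhere. Its cerebellar excess was 3.92 ± 0.17 (adjusted p = 2.73e-23). Emx1 and Otx1, both cortical factors, stayed below the negative controls, and their regional means spanned only 0.25 and 0.61.

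**Figure D2:**
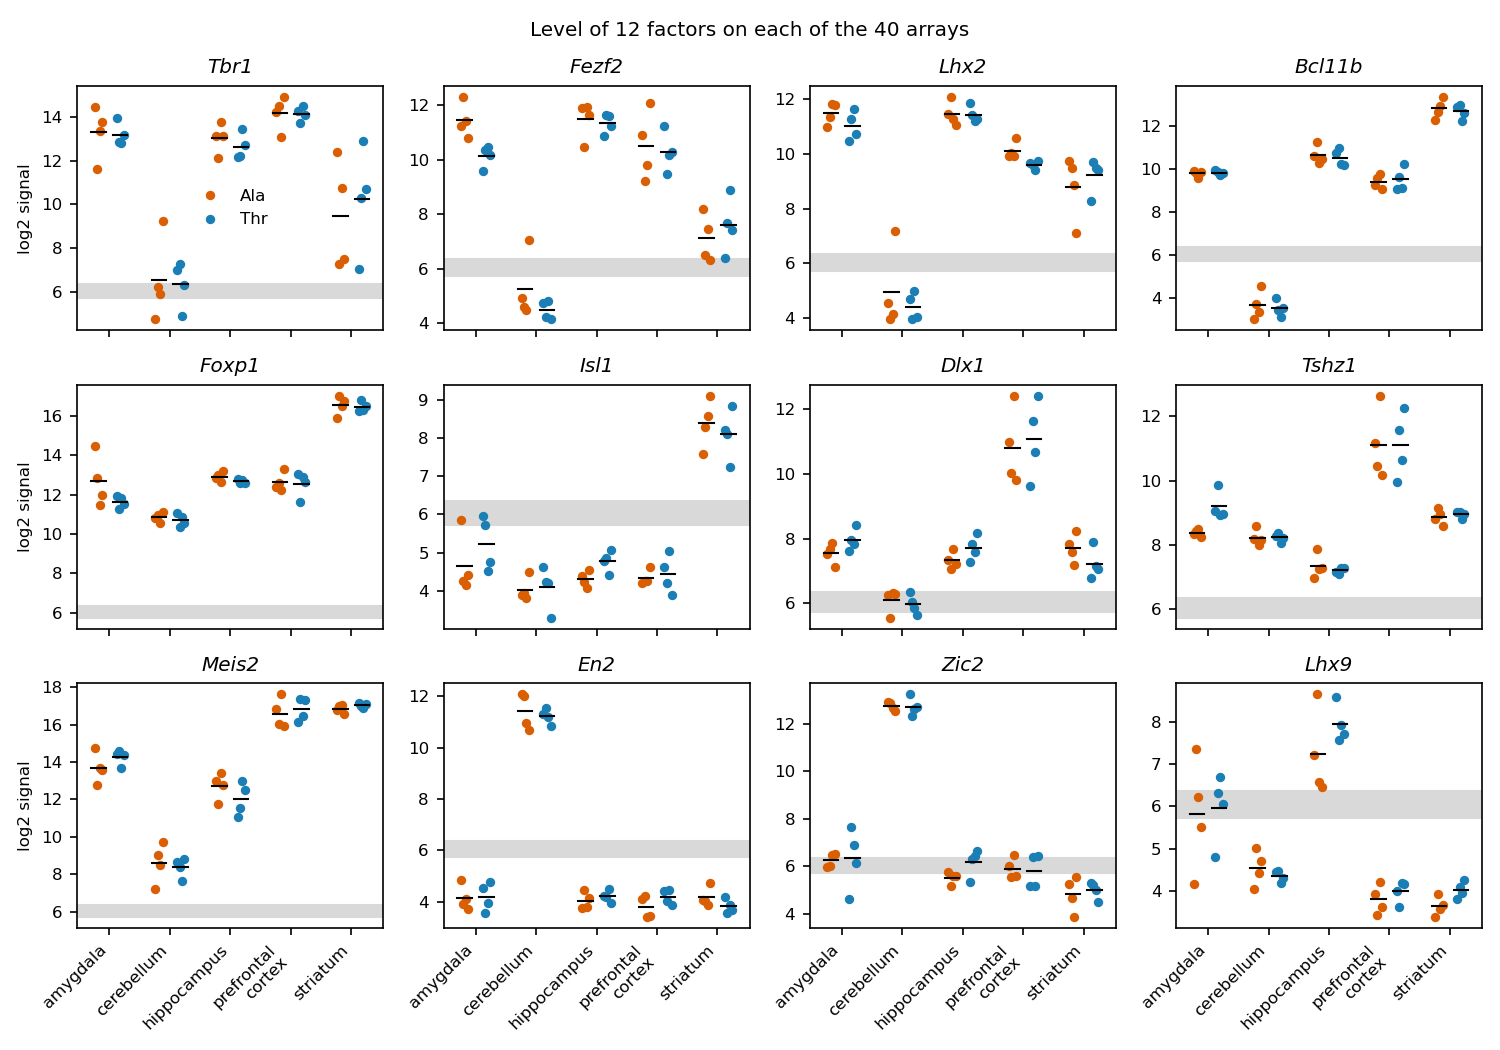
Log2 signal of 12 factors on each array, by region (x axis) and genotype (colour), with group means as black lines and the range of the negative control medians as a grey band. Tbr1 is scattered in striatum (7.06 to 12.88), Dlx1 and Tshz1 in prefrontal cortex, and En2 and Zic2 lie well above the band only in cerebellum.

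Among the 13 subpallial factors, 7 were higher and 0 lower in striatum, and 10 were lower in cerebellum. Their median difference in striatum was 2.71, against -0.00089 over all genes tested. Foxp1, a forkhead factor of striatal projection neurons, read 15.91 to 17.03 in striatum with a median of 16.50, and at most 14.49 on any other array. Foxp2, its relative linked to speech, read 10.03 to 11.08 in striatum and at most 8.60 elsewhere. Isl1, a LIM-homeodomain factor of the direct striatal pathway, read 7.25 to 9.10 in striatum and at most 5.96 elsewhere, within or below the negative control range. Six3, which acts in striatal neurons of the indirect pathway, read 7.39 to 9.32 in striatum and at most 7.32 elsewhere. These 4 factors and Bcl11b were the 5 members whose striatum arrays all lay above the other 32 arrays.

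The striatal differences from the other regions were 4.41 ± 0.20 for Foxp1, 4.10 ± 0.26 for Foxp2, 3.75 ± 0.19 for Isl1 and 3.36 ± 0.23 for Six3, with adjusted p of 5.81e-16 or less. Isl1 and Six3 had means below the negative controls in the other 4 regions, and their striatal means were 1.89 and 1.98 above the highest negative control median. For each of Foxp1, Foxp2 and Six3, the highest amygdala value came from Ala amygdala array 1, the array with high striatum markers. Dlx6, a distal-less homeodomain factor of GABAergic neurons, was 8.53 ± 0.56 in striatum, 6.55 ± 0.77 in prefrontal cortex and 5.35 ± 0.67 in amygdala, and each of these steps passed. Dlx5 was 9.30 ± 0.68 in striatum and 9.03 ± 1.31 in prefrontal cortex, which did not pass between them. Meis2, a TALE homeodomain factor, was likewise 16.93 ± 0.19 in striatum and 16.70 ± 0.67 in prefrontal cortex, with a difference of 0.24 ± 0.30 (adjusted p = 0.605). Ebf1, which acts in direct-pathway neurons, was second in striatum at 11.31 ± 0.58 and highest in cerebellum at 14.46 ± 0.26, which does not follow the name of its class.

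The prefrontal cortex carried a second group of subpallial factors. Of the 13, 7 were higher there, Dlx1, Dlx2, Dlx5, Dlx6, Sp8, Meis2 and Tshz1, and 3 were lower, Isl1, Six3 and Ebf1. Without Sp8, which passed the filter through this region alone, 6 were higher. With the cerebellum left out of the reference, Dlx6 (0.30) and Ebf1 (-0.81) lost the call. Dlx1, of GABAergic interneurons, read 9.61 to 12.42 in prefrontal cortex with a median of 10.84, and at most 8.41 elsewhere, striatum included. Dlx2 read 8.31 to 11.27 there and at most 7.63 elsewhere. Sp8, a zinc-finger factor of interneurons from the dorsal subpallium, read 5.75 to 8.50 there and at most 4.49 elsewhere, which is below the negative controls. Tshz1, needed for olfactory bulb interneurons, read 9.97 to 12.64 there and at most 9.86 elsewhere. These 4 were the members whose prefrontal cortex arrays all lay above the other 32 arrays.

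The differences of prefrontal cortex from the other regions were 3.76 ± 0.22 for Dlx1, 3.76 ± 0.23 for Dlx2 and 2.81 ± 0.19 for Tshz1. For Sp8 the fitted difference was 3.47 ± 0.20, but its other regions were below the negative controls, and its mean in prefrontal cortex was 0.92 above the highest negative control median. The olfactory bulb markers were high on the same arrays in part. Of the 10 olfactory bulb markers listed, 7 were on the array, all 7 were higher in prefrontal cortex, and their mean was 9.9 on Ala array 27, 9.8 on Thr array 32, 9.0 on Thr array 30 and 8.8 on Ala array 25. Arrays 28 and 31 had 8.5, and arrays 26 and 29 had 6.7. For 10 of the 36 members, Dlx1, Dlx2, Dlx6, Sp8, Sp9, Meis2, Tshz1, Pax6, Zic2 and Meis1, arrays 25, 27, 30 and 32 were exactly the 4 highest prefrontal cortex arrays. The same held for 3.51% of all genes tested. Dlx1 read 12.41 and 12.42 on arrays 27 and 32, and 10.03 and 9.61 on arrays 26 and 29, which were lowest in the markers. Array 28 did not follow this order throughout. With markers at 8.5 it read 9.81 for Dlx1, 8.49 for Dlx2 and 10.19 for Tshz1, each below array 26 (10.03, 8.54 and 10.47). Of the 10 members, Dlx6 (6.34 against 6.15), Sp8 (6.24 against 5.75) and Zic2 (5.58 against 5.57) were higher on array 28. The others were lower on array 28 than on array 26. Tbr1 ran otherwise, at 13.06 on array 27 and 13.72 to 14.90 on the rest.

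Those 4 arrays were then left out, an alternative added after the values were seen, as were all those that leave out several arrays. Dlx1 and Dlx2 still differed by 2.84 each, Tshz1 by 2.01, Meis2 by 3.18 and Dlx5 by 1.45, all called. Sp8 differed by 2.55, but it passed the filter through prefrontal cortex alone, and its call supports nothing here. Dlx6 fell from 1.07 to 0.47 (adjusted p = 0.141), and the count of members higher in prefrontal cortex stayed at 10, Sp8 included. The 4 arrays left also carried olfactory bulb markers, at 6.7 to 8.5, and the part of bulb tissue in these differences was not tested. Sp9, a relative of Sp8, was 6.68 ± 0.48 in striatum and 6.49 ± 0.41 in prefrontal cortex, and was called in no region at the size required.

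**Figure D3:**
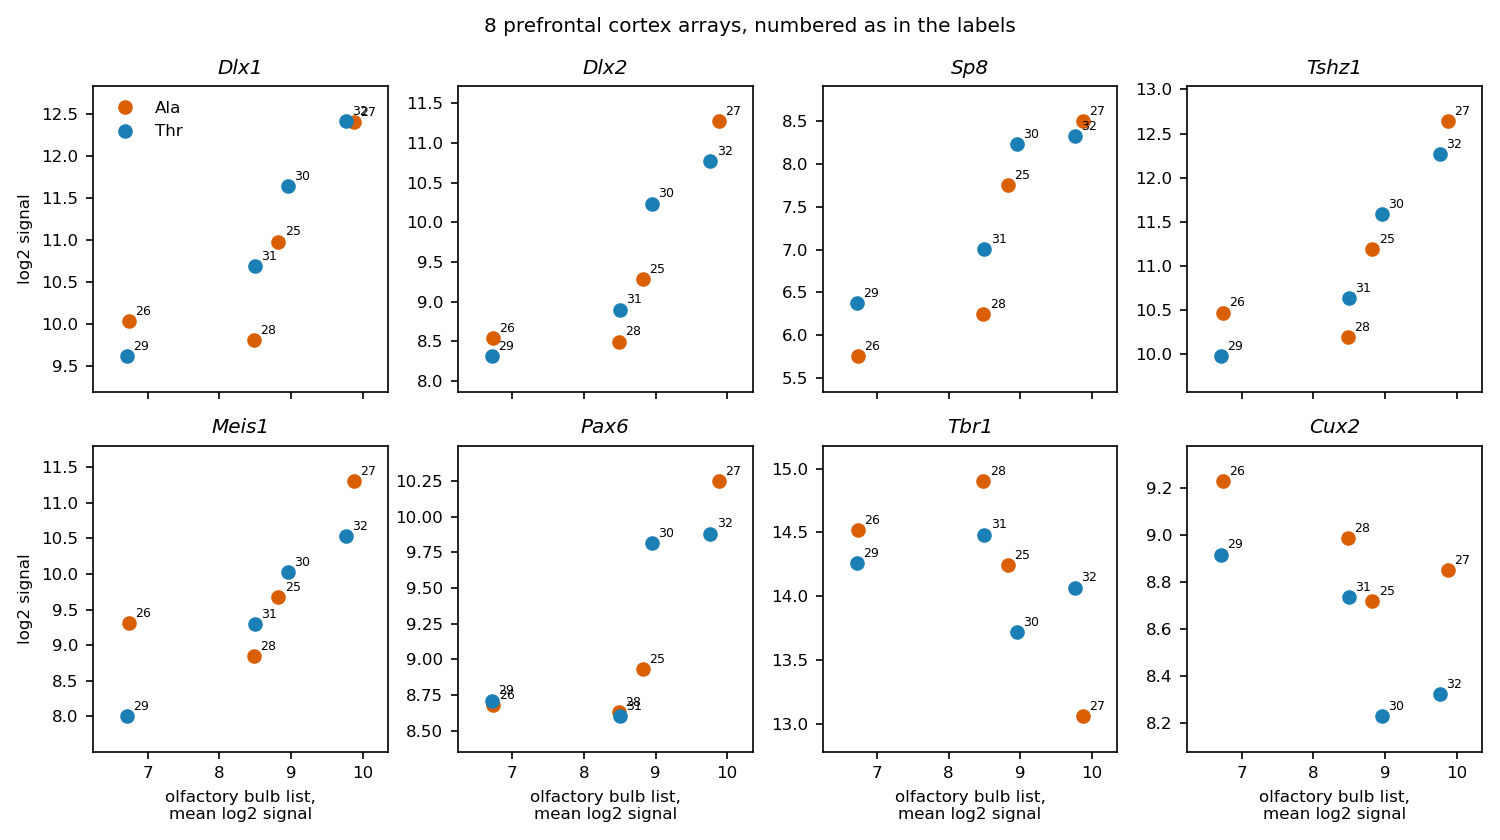
Log2 signal of 8 factors (y axes) against the mean log2 signal of 7 olfactory bulb markers (x axes) on the 8 prefrontal cortex arrays, numbered as in the labels and coloured by genotype. Arrays 25, 27, 30 and 32 are highest for Dlx1, Dlx2, Sp8, Tshz1, Meis1 and Pax6, and Tbr1 and Cux2 do not follow them.

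Of the 12 caudal factors, 10 were higher and 0 lower in cerebellum. Barhl1, Lhx1 and Lhx5 passed the filter only through their cerebellum arrays, as did En1, and of the other 8 caudal factors 7 were higher. Those 7 included En2 and Zic4, which would not have passed without their cerebellum arrays. En2, an engrailed homeodomain factor of the midbrain-hindbrain boundary and cerebellum, read 10.69 to 12.07 in cerebellum and at most 4.86 on any other array. Its fitted difference was 7.25 ± 0.16 (adjusted p = 1.24e-32). That call supports nothing about the cerebellum, since En2 needed those arrays to pass the filter. Since En2 was below the negative controls in the other 4 regions, its cerebellar mean is better given as 4.97 above the highest negative control median. Zic2, a zinc-finger factor of granule cells, read 12.33 to 13.23 in cerebellum and at most 7.65 elsewhere, a difference of 7.01 ± 0.22. Its means in the other 4 regions were within or below the negative control range. Its cerebellar mean was 6.39 above the highest negative control median. Zic5 read 8.99 to 9.93 in cerebellum and at most 6.02 elsewhere. Its means in the other 4 regions were below the negative controls, and its fitted difference of 4.76 ± 0.19 stands beside a cerebellar mean 3.12 above the highest negative control median.

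Pax6, the paired-box factor of granule cell precursors, read 11.91 to 12.49 in cerebellum, and its next region was prefrontal cortex at 8.60 to 10.25. The step from prefrontal cortex to amygdala was also called for Pax6, at 1.39 ± 0.20 (adjusted p = 1.26e-06). Meis1, a TALE homeodomain partner, read 12.64 to 12.98 in cerebellum, 8.00 to 11.30 in prefrontal cortex and 5.36 to 6.97 in hippocampus, where it was lowest. Its hippocampal difference from the other regions was -3.65 ± 0.22 (adjusted p = 8.35e-17). Ebf3, a helix-loop-helix factor, was 7.26 ± 0.29 in cerebellum and 4.54 or less in the other regional means. Those other means were below the negative controls, and the cerebellar mean was 0.91 above the highest negative control median. Lhx1 and Lhx5, LIM-homeodomain factors of Purkinje cell development, rose to 6.30 ± 0.63 and 4.89 ± 0.60 in cerebellum from 2.80 or less elsewhere. All of these Lhx1 and Lhx5 means, like those of Zic4 and Barhl1, are within or below the negative control range. En1 was called in no region and reached 4.83 ± 0.30 in cerebellum.

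The caudal class also held diencephalic and medial factors, and Lhx9 was the only one of the class with its highest mean outside cerebellum. This LIM-homeodomain factor, also known from the caudal forebrain and the pallial amygdala, read 6.47 to 8.65 in hippocampus with a median of 7.64, 4.16 to 7.36 in amygdala, and at most 5.01 in the other 3 regions. Hippocampus and amygdala overlapped, and the step between them was 1.70 ± 0.29 (adjusted p = 2.46e-05). Its hippocampal difference was 3.08 ± 0.23, against a reference in which 3 regions were below the negative controls, and 3.14 without the 2 arrays with the highest thalamus markers. The amygdala value of 7.36 came from Ala array 2, on which the mean of the hippocampus markers was 7.3 against 6.1 to 6.5 on the other amygdala arrays.

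In 3 places of the genome, 2 members lie next to each other (GRCm38.p6). Dlx1 (chr2:71528113-71533981) and Dlx2 (chr2:71543408-71546754) are 9426 bases apart, and both were highest in prefrontal cortex and lowest in cerebellum. Dlx5 (chr6:6877801-6882068) and Dlx6 (chr6:6863334-6867970) are 9830 bases apart, and both were highest in striatum, then prefrontal cortex. Thus Dlx1 and Dlx2 had a striatal mean 3.49 and 2.80 below prefrontal cortex, while that of Dlx6 was 1.98 above it and that of Dlx5 did not pass. Zic2 (chr14:122475384-122480328) and Zic5 (chr14:122459160-122465658) are 9725 bases apart and were both highest in cerebellum.

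A further list of 60 regional transcription factors was read in the same way, of which 53 were on the array and 38 were tested. In cerebellum 13 of the 38 were higher (8.69% of all genes) and 9 lower (10.1%), and in hippocampus 7 (3.57%) and 7 (2.34%). In prefrontal cortex 7 were higher (3.28%) and 8 lower (1.94%). Striatum had 5 (5.71%) and 9 (5.20%), and amygdala 5 (3.40%) and 7 (2.44%). Whether any of the 38 passed the filter through 1 region alone was not examined. The differences named in cerebellum were those of Lmo3 (-8.55 ± 0.24), Zic1 (7.98 ± 0.31) and Barhl2 (7.42 ± 0.20). The nuclear receptors Rxrg (7.48 ± 0.19) and Rarb (6.90 ± 0.20) led in striatum, Neurod6 (5.60 ± 0.40) and Prox1 (3.77 ± 0.19) in hippocampus, and Nr2f2 (4.86 ± 0.27) in amygdala. Eomes, a T-box factor known also from olfactory bulb projection neurons, led in prefrontal cortex with 3.51 ± 0.32.

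Between the Ala and Thr groups, 0 of the 36 members passed limma's test at an adjusted p under 0.05 in any region. Of all genes tested, 0.120% passed in amygdala, 0.0801% in striatum, 0.0200% in the average over regions and 0 in cerebellum, hippocampus and prefrontal cortex. At an unadjusted p under 0.05, 5 members passed in amygdala (5.33% of all genes), 0 in cerebellum (1.94%), 1 in hippocampus (3.14%), 0 in prefrontal cortex (2.33%), 2 in striatum (6.14%) and 1 in the average (5.37%). The fits without a trend, with robust variances, with array weights and for each region alone also called 0. An F-test of whether the difference varied between regions passed for 0 of the 36 (0.0401% of all genes). The 4 Ala and 4 Thr arrays did not overlap for 4 members in amygdala (3.19% of all genes), 2 in cerebellum (2.66%), 3 in hippocampus (2.73%), 1 in prefrontal cortex (1.66%) and 1 in striatum (1.98%).

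**Figure D4:**
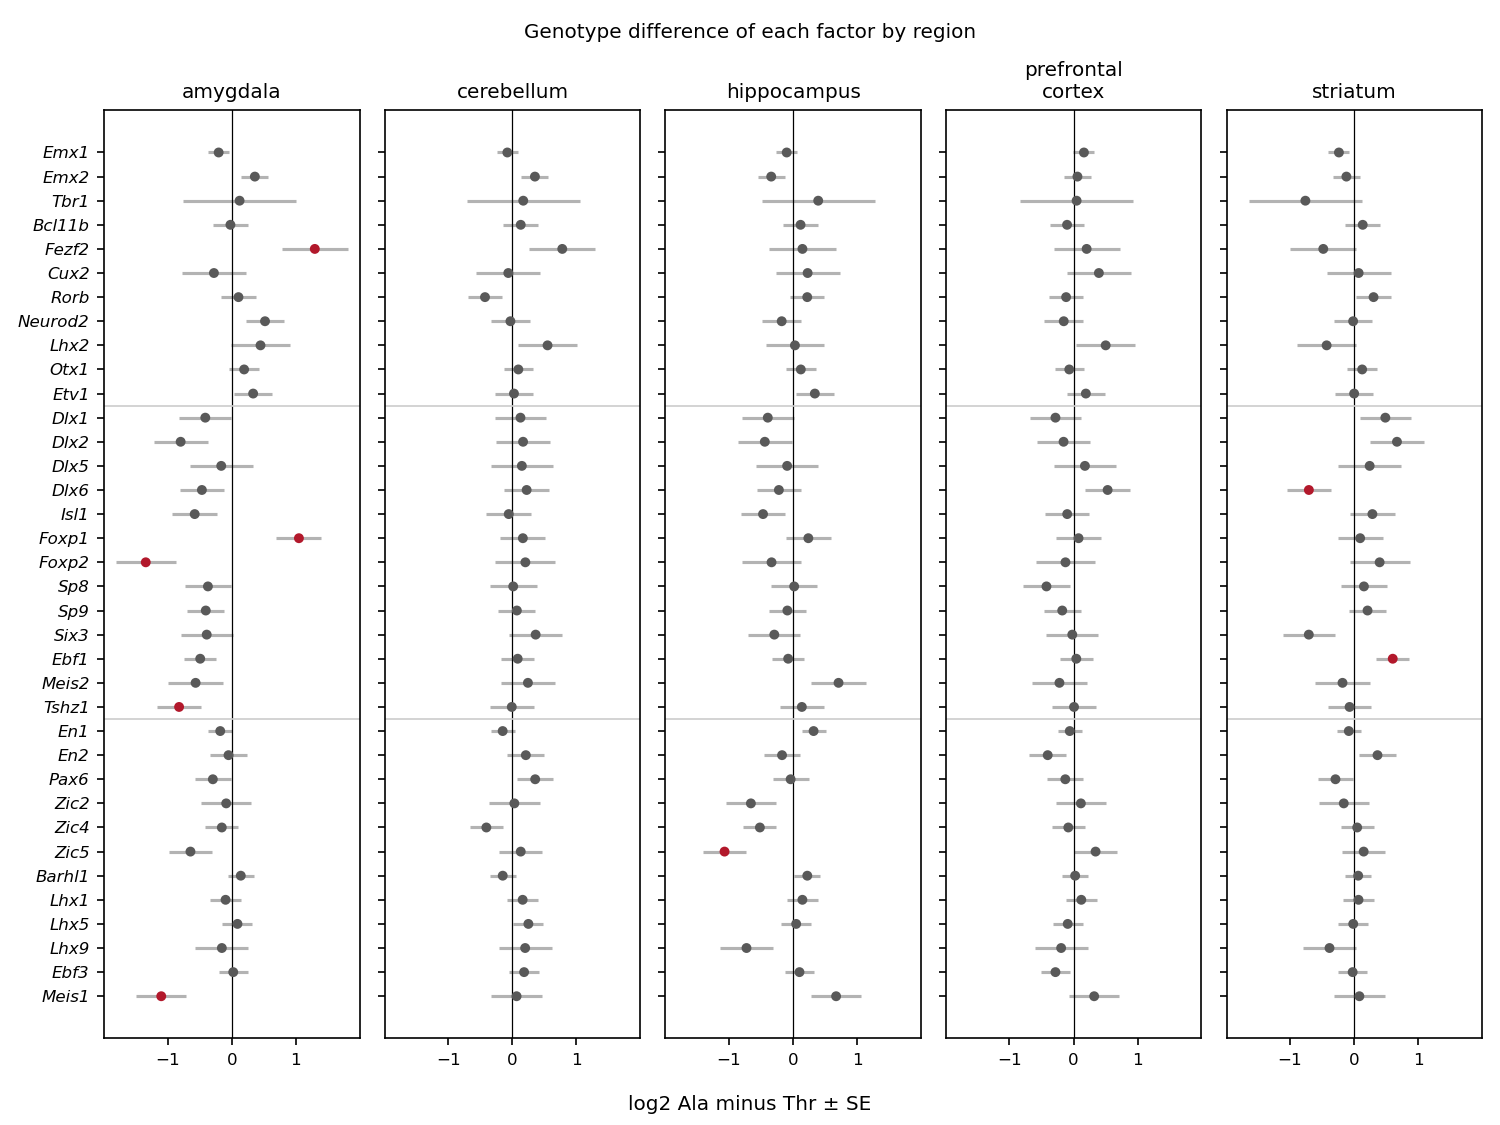
Difference Ala minus Thr in log2 units (x axes, bars are SE of the limma fit) of 36 factors (rows) in 5 regions, with unadjusted p under 0.05 in red. In amygdala 12 of the 13 subpallial factors lie below 0 and Foxp1 above it, and in cerebellum 11 of the 13 lie above 0. Of all points, 0 passed the adjusted test.

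In amygdala, 12 of the 13 subpallial factors had a lower mean in Ala, with a median difference of -0.47 against 0.0055 over all genes tested. One-sided counts were not particular to amygdala. In cerebellum 11 of the 13, and 27 of all 36 members, had a higher mean in Ala (median of the 13, 0.15). Marker lists also differed in amygdala, but they were chosen with earlier results of these data known, so their counts are not independent support. Of the amygdala markers 7 of 10 had a lower mean in Ala (median -0.43) and 3 were called, and their mean was 9.0 to 9.8 on the Ala and 9.7 to 10.3 on the Thr arrays. Of the hypothalamus markers 5 of 8 had a lower mean and 3 were called, and their mean was 4.5 to 4.8 on the Ala and 5.1 to 5.3 on the Thr arrays, without overlap and below the negative controls. Of the oligodendrocyte markers 8 of 9 had a lower mean in Ala, and of the cerebellum markers 8 of 9 had a higher one. A higher mean in Ala was also seen for 8 of 10 striatum, 7 of 10 neocortex and 6 of 9 choroid plexus markers. A lower one was seen for 6 of 7 olfactory bulb and 7 of 10 thalamus markers. Lists other than those of amygdala and hypothalamus had 0 markers called. The mean of the cerebellum markers was 8.90 on Ala array 1 and 6.34 to 6.63 on the other 3 Ala arrays. It was 6.55 to 7.00 on the Thr arrays. The part of these marker lists in the shift of the subpallial factors was not tested. Foxp2 read 8.60, 5.37, 5.18 and 5.93 on Ala arrays 1 to 4, and 8.30, 8.25, 6.80 and 7.10 on Thr arrays 5 to 8. Ala array 1 lay above all 4 Thr arrays, and the other 3 lay below them. The difference was -1.34 ± 0.47 (adjusted p = 0.630). Without Ala array 1, the array with striatum markers at 12.0, it was -2.12 and was called (adjusted p = 0.00597). It was also called without the 2 amygdala arrays highest in striatum markers, Ala array 1 and Thr array 5, at -1.89 (adjusted p = 0.0423). The adjusted p ran from 0.00597 to 0.999 over the alternatives.

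Tshz1, known with Foxp2 from the intercalated GABAergic cells of the amygdala, read 8.35, 8.44, 8.50 and 8.25 on the Ala arrays and 9.07, 9.86, 8.93 and 8.96 on the Thr arrays. The groups did not overlap, and the difference was -0.82 ± 0.34 (adjusted p = 0.827). Meis1 read 8.16, 6.58, 7.02 and 6.99 on the Ala arrays and 8.33, 8.55, 7.81 and 8.45 on the Thr arrays. Ala array 1 was again the highest of its group, and the difference was -1.10 ± 0.39 (adjusted p = 0.666), or -1.42 without that array (adjusted p = 0.255; 0.222 to 0.985 over the alternatives).

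Foxp1 read 14.49, 12.83, 11.47 and 11.96 on the Ala arrays and 11.95, 11.25, 11.85 and 11.51 on the Thr arrays of amygdala, a difference of 1.05 ± 0.35 (adjusted p = 0.556). Ala array 1 gave the highest value, and without it the difference was 0.45. Fezf2 read 11.23, 12.30, 11.43 and 10.81 on the Ala arrays and 9.59, 10.36, 10.48 and 10.18 on the Thr arrays. These groups did not overlap, with a difference of 1.30 ± 0.52 (adjusted p = 0.817). Among the other regional factors tested, Barhl2 was called in amygdala, with a difference Ala minus Thr of -2.04 ± 0.36 (adjusted p = 0.00416). Its mean over the amygdala arrays, 6.32, was within the negative control range.

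**Figure D5:**
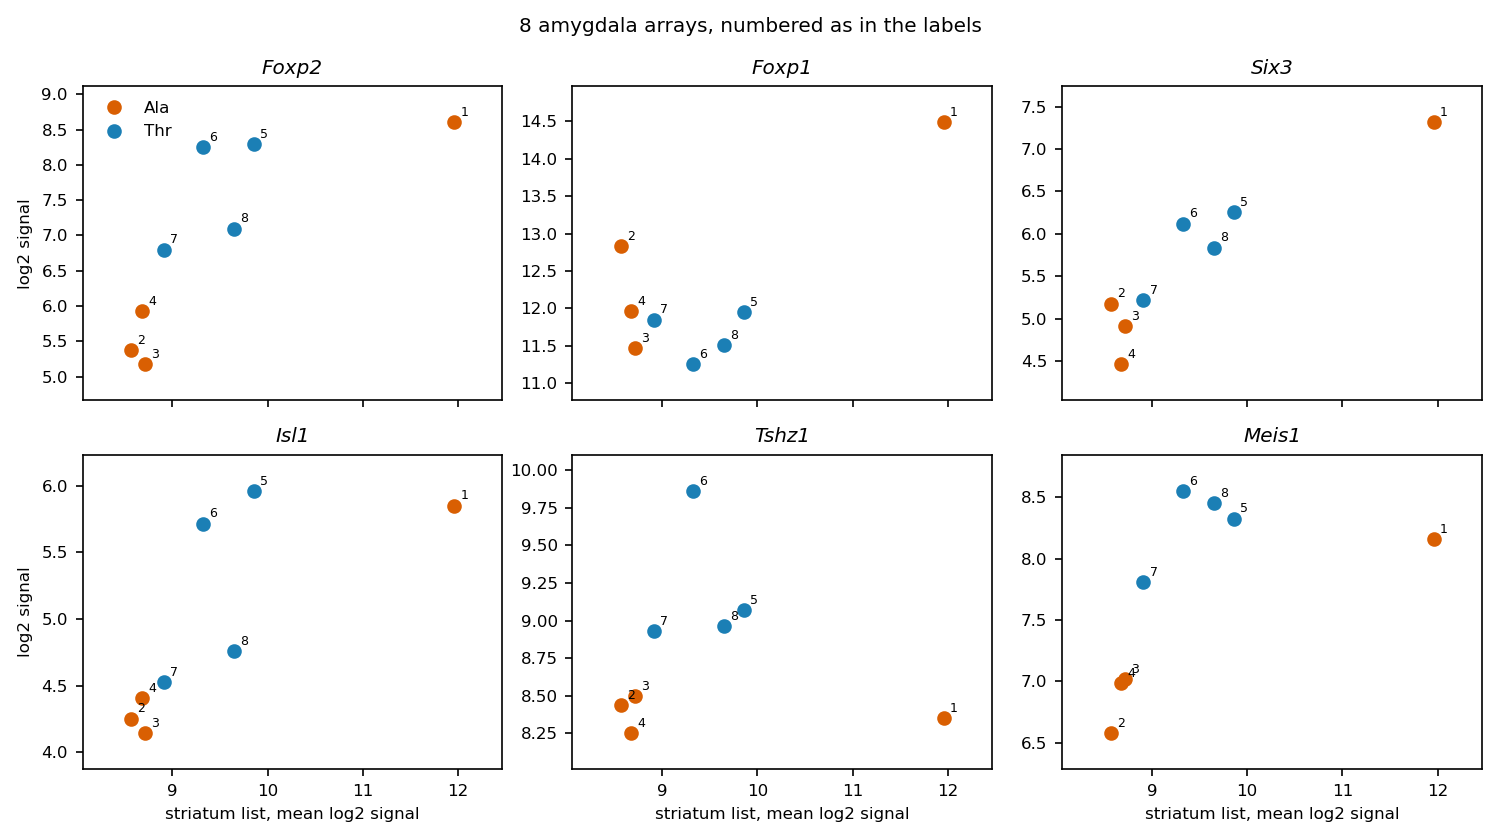
Log2 signal of 6 factors (y axes) against the mean log2 signal of 10 striatum markers (x axes) on the 8 amygdala arrays, numbered as in the labels and coloured by genotype. Ala array 1, at 12.0 on the x axis, is highest for Foxp2, Foxp1 and Six3, and the other 3 Ala arrays lie below all 4 Thr arrays for Foxp2.

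Outside the amygdala, Zic5 in hippocampus read 4.65, 4.05, 3.96 and 4.93 on Ala arrays 17 to 20 and 4.99, 5.26, 5.65 and 5.96 on Thr arrays 21 to 24. The groups did not overlap, all values were below or within the negative control range, and the difference was -1.07 ± 0.33 (adjusted p = 1.00). Without arrays 23 and 24, those with the highest thalamus markers, it was -0.73. In striatum, Ala minus Thr, Dlx6 differed by -0.71 ± 0.35 (adjusted p = 0.806) and Ebf1 by 0.60 ± 0.25 (adjusted p = 0.743), and the groups overlapped for both. All 9 choroid plexus markers had a higher mean in Ala there (median 2.29), and their part in these differences was not tested. Averaged over the 5 regions, Foxp1 differed by 0.32 ± 0.16 (adjusted p = 0.908).

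The spread between arrays of a group also differed by region. The median SD within groups was 0.47 over the members and 0.30 over all genes tested in amygdala, and 0.44 and 0.31 in prefrontal cortex. It was 0.30 and 0.26 in cerebellum, 0.33 and 0.28 in hippocampus, and 0.36 and 0.36 in striatum.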

How the data were processed

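Log2 signals deposited by the authors for 40 arrays were used; per the submitters' processing notes RMA made them, version not stated. That method removes background and normalizes between arrays, so array medians lay within 6.12 to 6.32 and no scaling was added. Genes above the 30th percentile (log2 4.60) in 4 or more arrays were kept. With limma 3.58.1 (R 4.3.3), lmFit estimated 10 group means and eBayes used a trend, leaving 30 residual degrees of freedom. P-values were adjusted by Benjamini-Hochberg. Regions were called under 0.05 with an absolute difference of at least 1, genotypes at the adjusted p alone, both adjusted over all 14978 genes. All members were named in 3 role classes; genotype results were given for members with an unadjusted p under 0.05; of the further factors, the 3 largest called per region could be named. The members and lists were chosen with earlier results of these data known. The fit was checked on simulated data. Alternatives covered scaling, filters, rows, variance estimates, array weights, thresholds, references and left-out arrays. The number of arrays limits precision.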

Additional observations from a re-analysis of the deposited data

Results flagged for a closer look

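Among 360 groups of 4 arrays (36 members in 10 groups), 18 held an array whose gap to the nearest other was larger, relative to the group's range, than Dixon's test allows. Chance marks about 1 group in 20. In amygdala, Isl1 on Ala array 1 was 5.85 (others 4.15 to 4.41) and Tshz1 on Thr array 6 was 9.86 (others 8.93 to 9.07). In cerebellum, Fezf2 on Ala array 12 was 7.06 (others 4.47 to 4.91), and on Ala array 10 Dlx1 was 5.54 and Sp8 was 3.81. In hippocampus, Dlx2 on Ala array 18 was 4.98, Sp9 on Ala array 19 was 4.92 and Zic4 on Thr array 21 was 3.76. In prefrontal cortex, Foxp2 on Thr array 32 was 8.26 (others 6.97 to 7.03), Isl1 and Zic5 on Ala array 28 were 4.64 and 5.84, and Zic4 and Barhl1 on Thr array 30 were 4.79 and 3.19. In striatum, Ebf1 on Thr array 38 was 11.84 (others 10.64 to 10.81), Emx1 and Sp8 on Thr array 39 were 5.18 and 4.49, Zic4 on Ala array 36 was 4.91 and Zic5 on Thr array 40 was 3.80. The values below 5.73 lay under the negative control medians.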

How the results depend on the processing

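No paired analysis was possible because each array has a number of its own and the groups share none. Under quantile normalization or median centring, the median over all genes shifted by less than 0.1 log2 units in every comparison. Counts of members within 1.5 times of the main ones are not listed. With no minimum difference, 7 members were higher and 13 lower in amygdala, and 23 were lower in hippocampus, 13 in prefrontal cortex and 17 in striatum. At a minimum of 2, the lower counts were 0 in amygdala, 3 in hippocampus, 0 in prefrontal cortex and 4 in striatum, and 4 were higher in hippocampus. With the cerebellum left out of the reference, 4 were higher in hippocampus, and 7 of 92 called differences changed sign: En2 to 0.13 and Zic2 to 0.75 in amygdala, Bcl11b to -0.092, En2 to 0.063 and Zic2 to 0.17 in hippocampus, and Zic2 to 0.16 and Zic5 to 0.065 in prefrontal cortex. A further 16 lost the call. Without the 2 amygdala arrays highest in striatum markers, 1 member was called between genotypes in amygdala, and leaving out each array in turn gave 0 to 1. Leaving out each array gave 3 to 4 members higher and 5 to 8 lower in amygdala. Among the 92 called differences, quantile normalization and median centring each ended 2 and array weights 4. Leaving out the 4 prefrontal cortex arrays ended 8, the 2 amygdala arrays 4, the 2 hippocampus arrays 1 and the 2 striatum arrays 0. Over single left-out arrays, Foxp1 in amygdala and Lhx1 in hippocampus, both close to 1 log2 unit, lost the call most often. Levels within or below the negative controls limit what can be said of the dim members.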
